A study of Mus musculus with 23 samples.

Results

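Potassium channel genes are described here as the mouse genes whose symbol begins with Kcn and whose read count, summed over the 23 libraries of the series, reached 230. The count files list 52636 genes, 99 of them with a Kcn symbol, and 78 reached that sum. The rule used a summed count and no difference between groups, so the levels below are a description, while the comparisons between groups were tested. By role, the 78 comprise 27 voltage-gated pore subunits, 9 electrically silent Kv subunits, 12 inward rectifiers and 10 two-pore leak channels. There are also 11 accessory subunits and 2 antisense RNAs. The other 7 are pore subunits with Kcnma, Kcnn, Kcnt or Kcnu symbols. They are labelled calcium- or sodium-activated below from the symbol, without a check of what opens each. The symbol alone defines the family, so potassium-permeable channels with other symbols are not in it.

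RNA from whole hippocampus of mice of a mixed C57Bl6 and Balbc background was sequenced in 4 groups. WT mice in normoxia gave 6 libraries, WT mice in hypoxia 6, P301S mice in normoxia 5 and P301S mice in hypoxia 6. According to the title of the series, the hypoxia was chronic and intermittent and the subject was pathological tau. P301S is a tau mutation known from inherited frontotemporal dementia, carried here as the genotype label gives it. Neither the line and promoter behind the P301S genotype nor the hypoxia regimen, the age or the sex of the mice is stated in the labels. Whether each library represents its own animal is not stated, and p-values therefore refer to the spread among libraries, which may be partly technical. Sample titles carry a number whose meaning is not stated. No number occurs in more than 1 of the 4 groups; 5 of the 6 WT normoxia libraries and 4 of the 6 WT hypoxia libraries share one, while each P301S library has its own. What the number stands for therefore cannot be told apart from genotype or from hypoxia.

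Potassium channels let potassium leave the neuron, which ends the action potential, sets the resting potential and limits firing. Pore subunits of the Kv families open on depolarization, silent Kv subunits modify pores they cannot form alone, inward rectifiers and two-pore channels hold the resting potential, and accessory subunits tune gating and trafficking. In the hippocampus, transient A-type currents in dendrites and axons, delayed rectifiers on the soma and slow M-currents at the axon initial segment are textbook controls of excitability. In bulk tissue, fewer cells of a type and less RNA per cell cannot be told apart.

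The depth was 19.1 to 25.8 M counts per library, and the 78 genes took 0.624% to 0.716% of them. The hippocampal markers were present in every library: 6 dentate granule cell genes summed to between 283 and 571 CPM (counts scaled to library size after normalisation by the trimmed mean of M-values), and 6 CA pyramidal cell genes to between 435 and 564 CPM. The 6 libraries lowest in choroid plexus markers (10 genes, none at 0) are WT normoxia replicate 4, WT hypoxia replicates 1, 4 and 5, and P301S hypoxia replicates 1 and 4. WT hypoxia replicate 1, which also had the lowest depth, lay apart from its group in 6 of the 78 genes by Dixon's test, and WT normoxia replicate 4 in 5. Calls that end without the 6 choroid-poor libraries are named beside the results.

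The counts include intron reads as well as exon reads, so the length of a gene bears on its count. Of the 78 genes, 23 (29.5%) are over 100 kb long, against 14.2% of the 17788 genes tested, and the median gene body is 42.0 kb against 22.3 kb. Kcnip4 is the longest at 1135 kb, Kcnma1 spans 725 kb, and the silent subunit Kcnf1 spans 4.79 kb. All 78 genes passed the filter on low counts. Just inside the threshold were Kcnk5 (502 counts), Kcnj5 (527 counts) and Kcna5 (640 counts), and just outside it Kcnn4 (220 counts), Kcnv2 (170 counts) and Kcnk7 (142 counts). Of the 21 Kcn genes below the threshold, 9 had 0 counts, among them Kcna3 and Kcnj13, and all 9 lie wholly within the span of another gene, where reads that touch more than 1 gene are not counted. Their expression cannot be read from these counts.

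The same rule affects some members. In Kcna6, 93.6% of the exon bases lie under another gene, mainly Gm26673, and in Kcnip4 56.9%, so their counts come from introns and the remaining exon bases. Of the gene body of Kcnq1, 42.4% lies under other genes, mainly the antisense Kcnq1ot1. The antisense members Kcnd3os and Kcnmb4os2 overlap Kcnd3 and Kcnmb4, and the counting used no strand.

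The genes the results turn on are placed as the count files give them, on GRCm38 (mm10). The long ones are Kcnip4 (ENSMUSG00000029088, chr5:48389502-49524907, minus strand) and Kcnb2 (ENSMUSG00000092083, chr1:15287254-15723750, plus strand). The shorter ones that passed the test between genotypes are Kcna2 (ENSMUSG00000040724, chr3:107101146-107115005, plus strand), Kcnk6 (ENSMUSG00000046410, chr7:29221926-29232515, minus strand) and Kcnh4 (ENSMUSG00000035355, chr11:100740376-100759942, minus strand). Kcnh4 also passed with hypoxia in P301S. The others that passed with hypoxia are Kcnv1 (ENSMUSG00000022342, chr15:45106284-45114934, minus strand), Kcna4 (ENSMUSG00000042604, chr2:107290639-107298502, plus strand), Kcna6 (ENSMUSG00000038077, chr6:126708329-126740674, minus strand) and Kcnk5 (ENSMUSG00000023243, chr14:20140057-20181809, minus strand). Kcna6 lies on the chromosome that also carries its subfamily members Kcna1 and Kcna5.

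Per kb of exon, accessory subunits had the 2 highest levels of the family. Kcnab2, an auxiliary beta subunit of Kv channels, had the highest level at 115 ± 11.5 CPM per exon kb (SD, n = 23). Kcnip2, a calcium sensor that binds A-type pores, had 65.1 ± 7.27 CPM per exon kb. Kcnj10, the inward rectifier of astrocytes, had 44.1 ± 6.53 CPM per exon kb, the highest of the inward rectifiers. At the other end, Kcnj5 had 0.202 ± 0.0759, Kcnk5 0.268 ± 0.107 and Kcnh8 0.304 ± 0.0889 CPM per exon kb. By role, the median level was 8.09 CPM per exon kb for the voltage-gated pores, which held 50.9% of the family's counts, 8.59 for the inward rectifiers and 8.01 for the accessory subunits. It was 5.15 for the silent Kv subunits, 4.25 for the calcium- or sodium-activated pores and 3.25 for the two-pore channels. The range within the inward rectifiers, from 0.202 to 44.1, was wider than these differences between roles. Per kb of gene body the order changed: Kcna2, an axonal Kv subunit, came first at 20.2 ± 1.88 CPM per gene kb. The ranks on the 2 scales correlated across the 78 genes with a Spearman rho of 0.63.

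**Figure D1:**
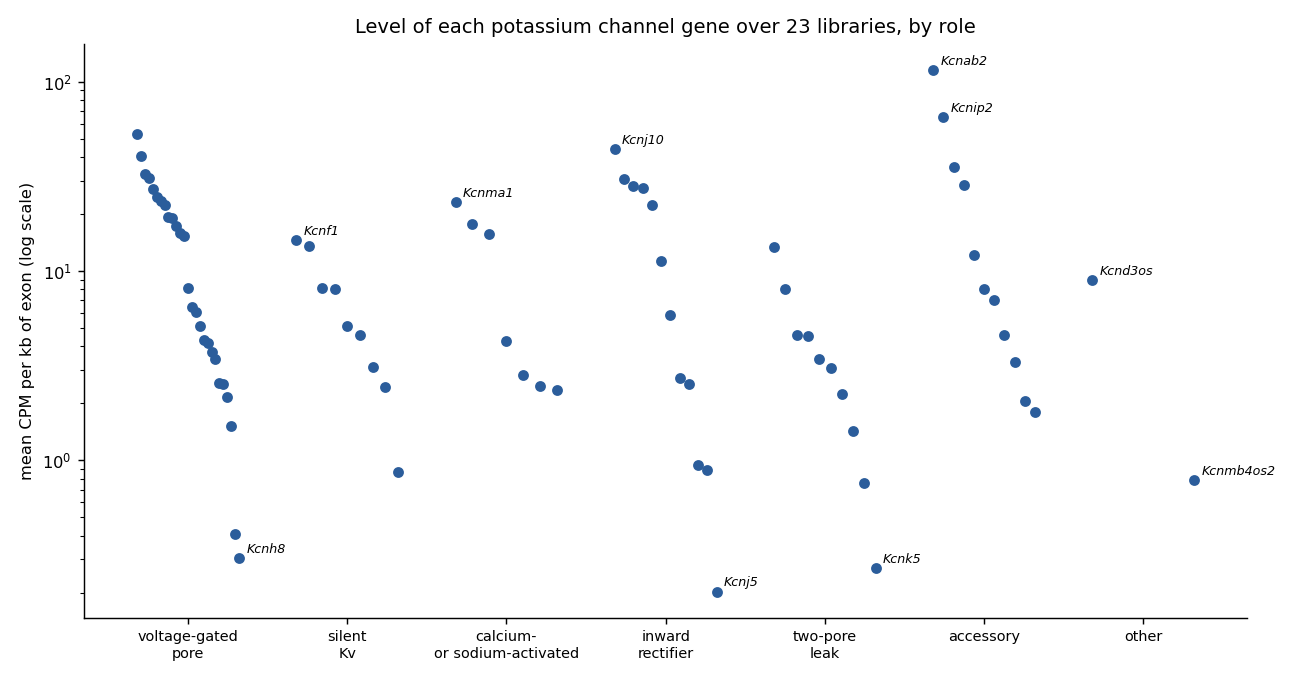
Mean CPM per kb of exon (vertical axis, log scale) of each of the 78 genes over 23 libraries, grouped by role on the horizontal axis, 1 point per gene, with some of the highest and lowest points named. Kcnab2 at 115 is the highest point and Kcnj5 at 0.202 the lowest.

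In normoxia, P301S hippocampus had more counts of several long Kv and accessory genes than WT. Of the 78 genes, 7 rose and none fell (edgeR's quasi-likelihood test, Benjamini-Hochberg adjusted p below 0.05 over all genes), beside 6.35% of all genes tested that passed in either direction and 2.57% that rose. The 7 were Kcnip4, Kcnb2, Kcnh7, Kcnd2, Kcna6, Kcnma1 and Kcnq1, and 6 of the 7 are over 100 kb long. The median log2 fold change of the family was 0.05.

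Kcnip4, a calcium-sensing subunit that binds A-type channels, showed the largest change of the 7. Its level was 122, 152, 134, 163 and 130 CPM in the 5 P301S normoxia libraries. In WT normoxia it ran from 67.6 through a median of 79.8 to 97.4 CPM. Every P301S normoxia library lay above every WT normoxia library. The log2 fold change was 0.79 (SE 0.106, edgeR adjusted p = 0.000242). Kcnd2, the main A-type pore of hippocampal dendrites and a binding partner of such sensors, had 172, 188, 171, 163 and 181 CPM in P301S normoxia. In WT normoxia Kcnd2 ran from 130 through a median of 143 to 151 CPM. These groups did not overlap either, and the log2 fold change was 0.30 (SE 0.0783, edgeR adjusted p = 0.0254).

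Kcnb2, a delayed rectifier of the Kv type, had 41.5, 46.7, 44.0, 49.3 and 47.0 CPM in P301S normoxia. In WT normoxia Kcnb2 ran from 29.6 through a median of 32.4 to 39.6 CPM, again without overlap. Its log2 fold change was 0.46 (SE 0.0747, edgeR adjusted p = 0.002). Kcnh7, a neuronal member of the ether-à-go-go-related family, rose by a log2 fold change of 0.49 (SE 0.115, edgeR adjusted p = 0.0153), with 3 of 5 P301S libraries above the highest WT library. Kcna6, a Kv subunit of the same subfamily as Kcna2, rose by 0.30 (SE 0.0837, edgeR adjusted p = 0.0338), Kcnma1, the large-conductance calcium-activated channel, by 0.21 (SE 0.0603, adjusted p = 0.0409), and Kcnq1, best known from heart and epithelia, by 0.34 (SE 0.0984, adjusted p = 0.0422). Without the 6 libraries low in choroid markers, Kcnip4, Kcnb2, Kcnd2 and Kcnma1 were still called, beside 2.16% of all genes. Kcnh7 (adjusted p = 0.0564), Kcna6 (0.0963) and Kcnq1 (0.113) were not.

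**Figure D2:**
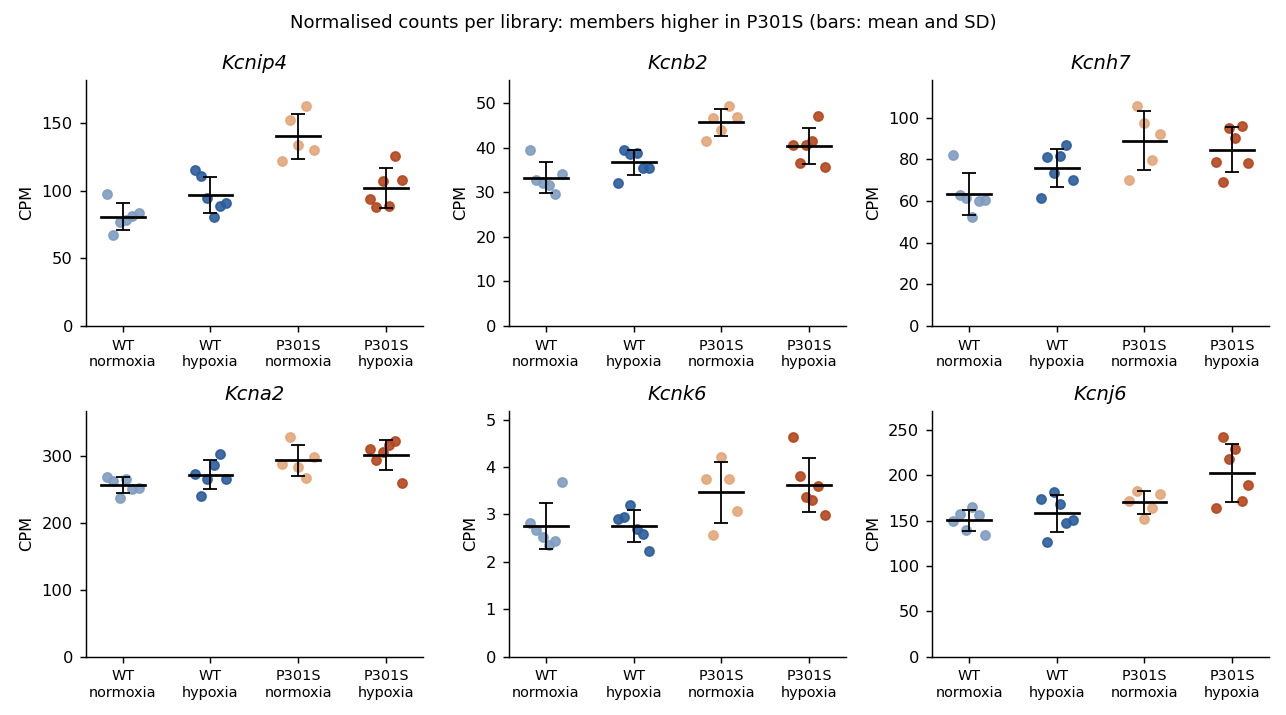
CPM per library (vertical axis, from 0) in the 4 groups for 6 genes that were higher in P301S in at least 1 comparison. Each point is a library and the bars give mean and SD; the 5 P301S normoxia libraries of Kcnip4 lie between 122 and 163 CPM, above all WT normoxia libraries.

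Counts of long genes in general moved with genotype. Across all 17788 genes, the log2 fold change between genotypes in normoxia rose with gene length (Spearman rho 0.40 across genes, which are not independent replicates), and within the family rho was 0.52. All 23 members over 100 kb had a positive fold change, with a median of 0.18, and 6 of them passed the test. Of the 55 shorter members, 28 had a positive fold change, the median was 0.00 and 1 passed. The difference between the mean centred log2 CPM of genes over 100 kb and under 10 kb was −0.17 to 0.04 in WT normoxia and −0.12 to −0.01 in WT hypoxia. It was −0.07 to 0.21 in P301S normoxia and 0.01 to 0.11 in P301S hypoxia.

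By role, 22 of the 27 voltage-gated pores had a positive fold change in normoxia (median 0.12) and 5 passed the test, while 8 of the 9 silent Kv subunits had a negative one (median −0.15) and none passed. The inward rectifiers (median 0.11), the calcium- or sodium-activated pores (0.14), the accessory subunits (0.12) and the two-pore channels (0.02) had fold changes of both signs. The median over all genes in the same bin of gene length, taken for each member and then as the median over the role, was 0.06 for the voltage-gated pores and −0.03 for the silent subunits. In hypoxia, the voltage-gated pores had a median of 0.14 between genotypes and the silent subunits of 0.10, the latter opposite in sign to normoxia, a difference between conditions that was not tested by role.

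A second fit therefore removed each library's own trend of count with gene-body length. In this length-adjusted fit 2 of the 7 still rose in P301S normoxia, beside 1.75% of all genes called and 0.528% that rose. Kcnip4 had a length-adjusted log2 fold change of 0.52 (SE 0.0828, edgeR adjusted p = 0.0026) and Kcnb2 of 0.28 (SE 0.0615, edgeR adjusted p = 0.0232). Kcnip4 stayed past the threshold when any 1 of the 23 libraries was left out, and Kcnb2 in 17 of 23 such fits. Without the 6 libraries low in choroid markers, the length-adjusted value of Kcnb2 was 0.27 (adjusted p = 0.0802), and Kcnip4 alone was called. Kcnh7 had a length-adjusted value of 0.30 (adjusted p = 0.109) and Kcnd2 of 0.11 (adjusted p = 0.541), and for Kcnma1 the value turned to −0.02 (adjusted p = 0.923). Within the family, rho between fold change and length was 0.13 in this fit.

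Averaged over both conditions, 15 of the 78 genes rose in P301S and none fell by edgeR, beside 13.1% of all genes called and 5.35% that rose. DESeq2 called 19, beside 15.6% of all genes: the same 15 and Kcne1l, Kcnf1, Kcnh6 and Kcnj9. Mean CPM of these 4 was lower in P301S than in WT. By role the 15 called by edgeR were 9 voltage-gated pores (among them Kcna2, Kcna6, Kcnb2, Kcnd2, Kcnh7, Kcnq1, Kcnq3 and Kcnq5), 3 inward rectifiers (Kcnj2, Kcnj3 and Kcnj6), the calcium-activated Kcnma1, the two-pore channel Kcnk6 and the accessory Kcnip4. No silent Kv subunit passed the edgeR test with all libraries, although Kcnf1 fell in the edgeR fit without the 6 libraries low in choroid markers. With the length adjustment 4 rose, beside 5.03% of all genes called and 1.05% that rose: Kcnip4, Kcnb2, Kcna2 and Kcnk6. The fold changes of the other 11 without the adjustment ran from 0.14 for Kcnj3 to 0.42 for Kcnj2, an inward rectifier that sets the resting potential. Among the M-current subunits, Kcnq3 ran from 234 through a median of 254 to 314 CPM in WT and from 260 through 305 to 371 CPM in P301S, with a log2 fold change of 0.21 (SE 0.0597, edgeR adjusted p = 0.0212). Kcnq5, another of them, ran from 91.5 through 112 to 149 CPM in WT and from 116 through 133 to 144 CPM in P301S, with a log2 fold change of 0.21 (SE 0.0601, edgeR adjusted p = 0.0238). Both overlap between genotypes, and their length-adjusted values were 0.11 and 0.08. Without P301S normoxia replicate 2, neither passed the test, with edgeR adjusted p = 0.0556 for Kcnq3 and 0.0529 for Kcnq5. Kcnj2 and Kcnj3 each fell short in 14 of the 23 fits that left out 1 library, with edgeR adjusted p of up to 0.0912 and 0.0841. Without the 6 libraries low in choroid markers, 9 of the 15 were still called, beside 7.16% of all genes. Kcnh7 (adjusted p = 0.0528), Kcna6 (0.0869), Kcnq1 (0.0881), Kcnj2 (0.115), Kcnj3 (0.118) and Kcnk6 (0.129) were not. Kcna2 and Kcnk6 are short genes of 13.9 and 10.6 kb, and their fold changes were no smaller in the length-adjusted fit.

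Kcna2, which forms channels along axons and at axon initial segments, ran from 237 through a median of 265 to 302 CPM in the 12 WT libraries and from 259 through 298 to 328 CPM in the 11 P301S libraries. The groups overlap, with 5 P301S libraries above all WT libraries. Its log2 fold change was 0.17 (SE 0.0425, edgeR adjusted p = 0.01) and 0.19 with the length adjustment (SE 0.0515, edgeR adjusted p = 0.0341), where 13 of the 23 fits that left out 1 library kept it past the threshold. Kcnk6, a weak inward-rectifying two-pore channel, is a low-count gene. It ran from 2.23 through a median of 2.69 to 3.68 CPM in WT and from 2.58 through 3.61 to 4.64 CPM in P301S. Its log2 fold change was 0.36 (SE 0.0984, edgeR adjusted p = 0.0167) and 0.40 with the length adjustment (SE 0.0957, edgeR adjusted p = 0.0168), which held in all 23 fits that left out 1 library. Without the 6 libraries low in choroid markers, and with no length adjustment, the value for Kcnk6 was 0.30 (adjusted p = 0.129), while Kcnip4, Kcnb2 and Kcna2 stayed past the threshold. With the length adjustment and without those libraries, Kcnip4 and Kcna2 were called, while Kcnb2 had 0.15 (adjusted p = 0.14) and Kcnk6 0.35 (adjusted p = 0.137).

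**Figure D3:**
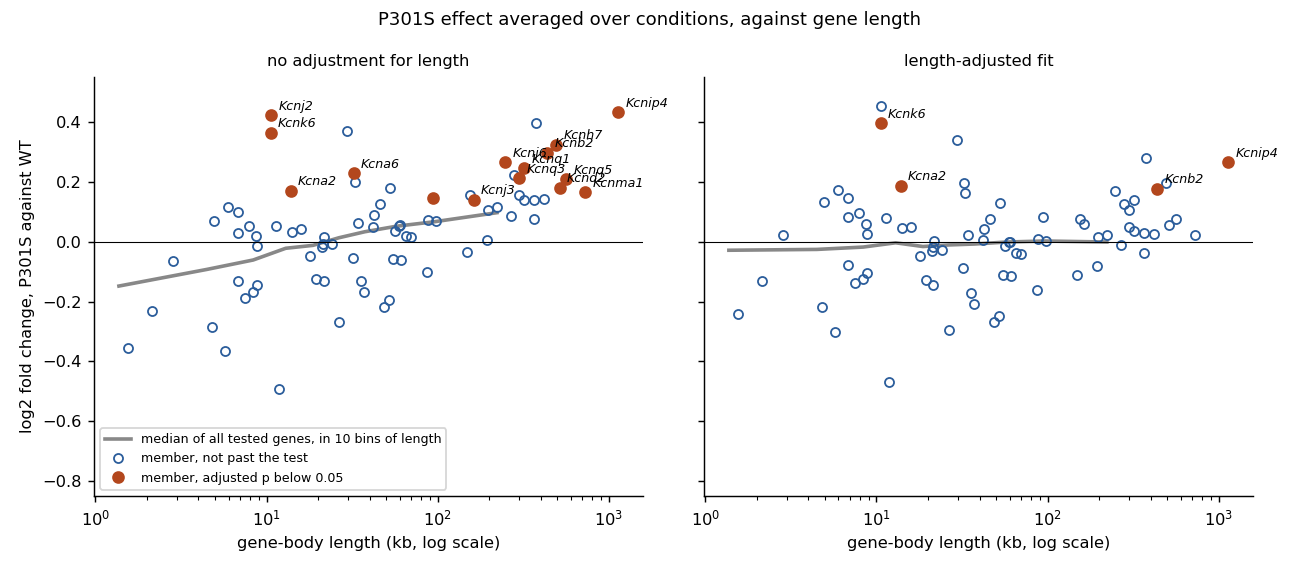
Log2 fold change of P301S against WT averaged over conditions (vertical axis) against gene-body length in kb (horizontal axis, log scale) for the 78 genes, without (left) and with (right) the length adjustment. Filled points passed the test, 15 on the left and 4 on the right, and the grey line joins the medians of all tested genes in bins of length.

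Among the inward rectifiers, Kcnj6 and Kcnj3 are pore subunits of channels opened by G proteins. In hypoxia, Kcnj6 rose in P301S, from a WT range of 127 to 181 CPM with a median of 160 to a P301S range of 164 to 242 CPM with a median of 204. The log2 fold change was 0.35 (SE 0.0923, edgeR adjusted p = 0.0475). Kcnh4, a Kv channel of the ether-à-go-go-like group found mainly in brain, fell in the same comparison. It ran from 7.70 through a median of 10.03 to 11.1 CPM in WT hypoxia and from 5.04 through 6.69 to 7.73 CPM in P301S hypoxia, with 5 of 6 P301S libraries below all WT libraries. Its log2 fold change was −0.51 (SE 0.124, edgeR adjusted p = 0.0321). These 2 were the only members called between genotypes in hypoxia, beside 1.87% of all genes. In the 23 fits that left out 1 library, Kcnj6 lost its call in 14 and Kcnh4 in 6. Their edgeR adjusted p reached 0.134 and 0.0911. Neither was called with the length adjustment, which called 0.41% of all genes and where Kcnh4 had an adjusted p of 0.0594 and Kcnj6 of 0.21, nor without the 6 libraries low in choroid markers (adjusted p = 0.171 for both).

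Hypoxia changed few members. In WT no member passed the test, beside 0.0731% of all genes called. DESeq2 called 1, beside 0.86% of all genes. Of the 78, 14 had an unadjusted p below 0.05 in edgeR, a count for which no share of all genes was computed. The members with the lowest p were the A-type pore Kcnd2 with a log2 fold change of 0.28 (edgeR adjusted p = 0.14), Kcnh5, an ether-à-go-go channel, with 0.50 (adjusted p = 0.155) and Kcna5, a Kv subunit, with 0.52 (adjusted p = 0.162).

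In P301S, 3 members fell with hypoxia and none rose, beside 0.41% of all genes called and 0.23% that fell. Kcnh4 had 9.86, 8.76, 9.53, 11.7 and 9.53 CPM in normoxia, all above its hypoxia range of 5.04 to 7.73 CPM, and its log2 fold change was −0.57 (SE 0.128, edgeR adjusted p = 0.0485). Kcna6 had 17.8, 18.3, 16.9, 17.4 and 22.1 CPM in normoxia, above its hypoxia range of 12.8 to 16.6 CPM, and its log2 fold change was −0.37 (SE 0.084, edgeR adjusted p = 0.0485). Kcnk5, an acid-sensitive two-pore channel, had 1.21, 1.16, 1.498, 1.64 and 1.10 CPM in normoxia and 0.471 to 0.961 CPM in hypoxia, with a log2 fold change of −1.08 (SE 0.245, edgeR adjusted p = 0.0485). All 3 were just past the threshold. None was called with the length adjustment (adjusted p = 0.0553 to 0.095, beside 0.287% of all genes called), and in 13 of the 23 fits that left out 1 library no member was called. With both length and GC content adjusted, 4 were called, beside 1.07% of all genes: Kcnh4, Kcnk5 and Kcnip4, which fell, and Kcnv1, which rose. Without the 6 libraries low in choroid markers Kcnk5 alone was called, beside 0.25% of all genes.

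Markers of neighbouring tissue were read beside these comparisons. A list of 6 thalamus and habenula genes, none at 0, had a median log2 fold change of 0.33 between genotypes in normoxia, where 1 of the 6 rose, and −0.37 for hypoxia in P301S, where none passed the test. Their summed level was 128 to 228 CPM in WT normoxia, 129 to 308 in WT hypoxia, 152 to 240 in P301S normoxia and 133 to 199 in P301S hypoxia. With that list's score as a covariate, an alternative chosen after the data were seen, 7 members were called between genotypes in normoxia, beside 4.01% of all genes, and none for hypoxia in P301S, beside 0.0394%. Of the 7 called in normoxia without the covariate, 5 kept their call, and Kcnd2 (adjusted p = 0.053) and Kcnq1 (0.0778) did not. The value of Kcnk5 was then −0.77 (adjusted p = 0.374), of Kcnh4 −0.51 (adjusted p = 0.26) and of Kcna6 −0.41 (adjusted p = 0.104). A list of 6 neocortex and subiculum genes had a median log2 fold change of 0.21 between genotypes in normoxia, where 1 of the 6 rose. For hypoxia in P301S its median was −0.16 and none passed the test. The score of this list was not used as a covariate. Lists of cells within the hippocampus moved too. Between genotypes in normoxia, 1 of 6 dentate granule cell markers and 1 of 6 CA pyramidal cell markers fell. In the same comparison 1 of 5 fast-spiking interneuron markers rose. For hypoxia in P301S the dentate list had a median log2 fold change of 0.33, and none of its genes passed the test. Their bearing on the members was not tested.

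No member differed between the genotypes in its response to hypoxia by the edgeR test of the interaction, beside 0.0394% of all genes called. Of the 78, 12 had an unadjusted p below 0.05 in edgeR, again with no share of all genes computed. DESeq2 called 2, Kcnip4 and Kcnh4, beside 0.275% of all genes. Kcnip4, which had 87.7 to 125 CPM in P301S hypoxia and 80.5 to 115 CPM in WT hypoxia, had a log2 fold change of −0.46 in P301S (edgeR adjusted p = 0.0507). Its interaction was −0.72 (SE 0.146, edgeR adjusted p = 0.0786; DESeq2 adjusted p = 0.00369). The interaction was −0.78 for Kcnh4 (edgeR adjusted p = 0.134; DESeq2 adjusted p = 0.0222) and −1.33 for Kcnk5 (edgeR adjusted p = 0.221).

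Averaged over the genotypes, 2 members rose with hypoxia and 1 fell, beside 1.33% of all genes called, and the length adjustment kept these 3, beside 1.34% of all genes called. Kcnv1, a silent Kv subunit that alters delayed rectifiers, ran from 29.2 through a median of 32.2 to 39.2 CPM in the 11 normoxia libraries and from 31.0 through 41.9 to 45.2 CPM in the 12 hypoxia libraries. Of the hypoxia libraries, 9 lay above all normoxia libraries, and the 3 others include WT hypoxia replicates 1 and 2. Its log2 fold change was 0.28 (SE 0.0606, edgeR adjusted p = 0.0202). Kcna4, the A-type Kv subunit of axons and terminals, ran from 23.1 through a median of 26.2 to 30.3 CPM in normoxia and from 25.8 through 31.4 to 37.0 CPM in hypoxia, with 8 hypoxia libraries above all normoxia libraries. Its log2 fold change was 0.26 (SE 0.0595, edgeR adjusted p = 0.0304).

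Kcna6 fell, from a normoxia range of 14.1 to 22.1 CPM with a median of 16.9 to a hypoxia range of 11.2 to 16.6 CPM with a median of 13.8. The log2 fold change was −0.30 (SE 0.059, edgeR adjusted p = 0.0123). In the length-adjusted fits that left out 1 of the 23 libraries, Kcna6 was called in all 23, Kcnv1 in 20 and Kcna4 in 14. The median of 6 dentate granule cell markers was 0.23 higher with hypoxia and that of 10 choroid plexus markers 0.78 lower; without the 6 libraries low in choroid markers Kcnv1 alone was called (0.33, adjusted p = 0.0339), with Kcna6 at −0.29 (adjusted p = 0.103) and Kcna4 at 0.25 (adjusted p = 0.17). With the thalamus and habenula score as a covariate Kcna6 alone was called, at −0.32.

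**Figure D4:**
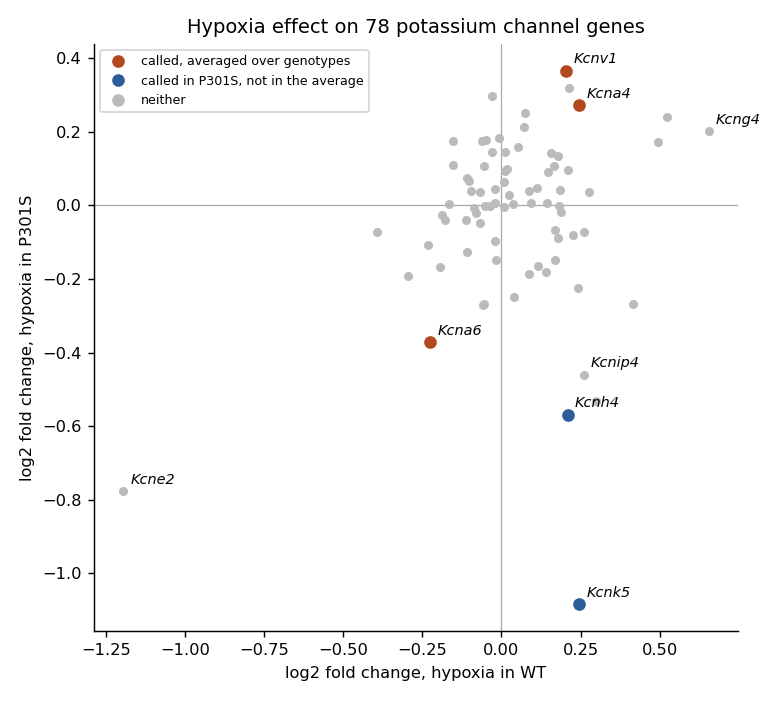
Log2 fold change with hypoxia in WT (horizontal axis) and in P301S (vertical axis) for the 78 genes, 1 point per gene. Kcnv1 and Kcna4 lie at positive values on both axes and Kcna6 at negative values on both, while Kcnh4 and Kcnk5 are negative in P301S alone.

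The promoters of Kcna4 and Kcna6 are shown because these 2 subunits of the same Kv subfamily moved in opposite directions with hypoxia. Both are the 250 bases before the annotated start in RefSeq (GRCm38.p6). The Kcna4 window is chr2:107290339-107290588 on the plus strand and the Kcna6 window chr6:126740675-126740924 on the minus strand. Capitals mark matches to the motifs searched.
Kcna4 promoter: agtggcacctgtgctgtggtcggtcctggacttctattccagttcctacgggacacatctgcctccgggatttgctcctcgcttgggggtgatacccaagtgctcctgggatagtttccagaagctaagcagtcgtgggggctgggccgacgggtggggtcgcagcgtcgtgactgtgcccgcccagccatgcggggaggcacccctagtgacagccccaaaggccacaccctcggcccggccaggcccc
Kcna6 promoter: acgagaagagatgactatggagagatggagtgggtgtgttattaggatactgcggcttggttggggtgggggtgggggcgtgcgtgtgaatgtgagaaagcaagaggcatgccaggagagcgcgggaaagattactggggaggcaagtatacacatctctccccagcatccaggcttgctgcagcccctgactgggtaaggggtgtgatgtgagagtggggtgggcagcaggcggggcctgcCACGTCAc
The letters searched for on both strands were CACGTG (E-box), ACGTG (core of the hypoxia response element, contained in the E-box), TGACGTCA (the full cyclic AMP response element), TGACG (its short form), TGANTCA (AP-1) and TTATGTAA (D-box). The Kcna6 window holds the core ACGTG and, overlapping it, TGACG, both on the reverse strand and next to the start, and the Kcna4 window holds none of the 6. Of 32851 mouse promoters of 300 bases (250 before to 50 after the start), 19.6% hold ACGTG and 20.8% TGACG. RefSeq promoters matched 55 of the 78 genes, and 11 of their 79 promoters (13.9%) hold ACGTG.

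**Figure D5:**
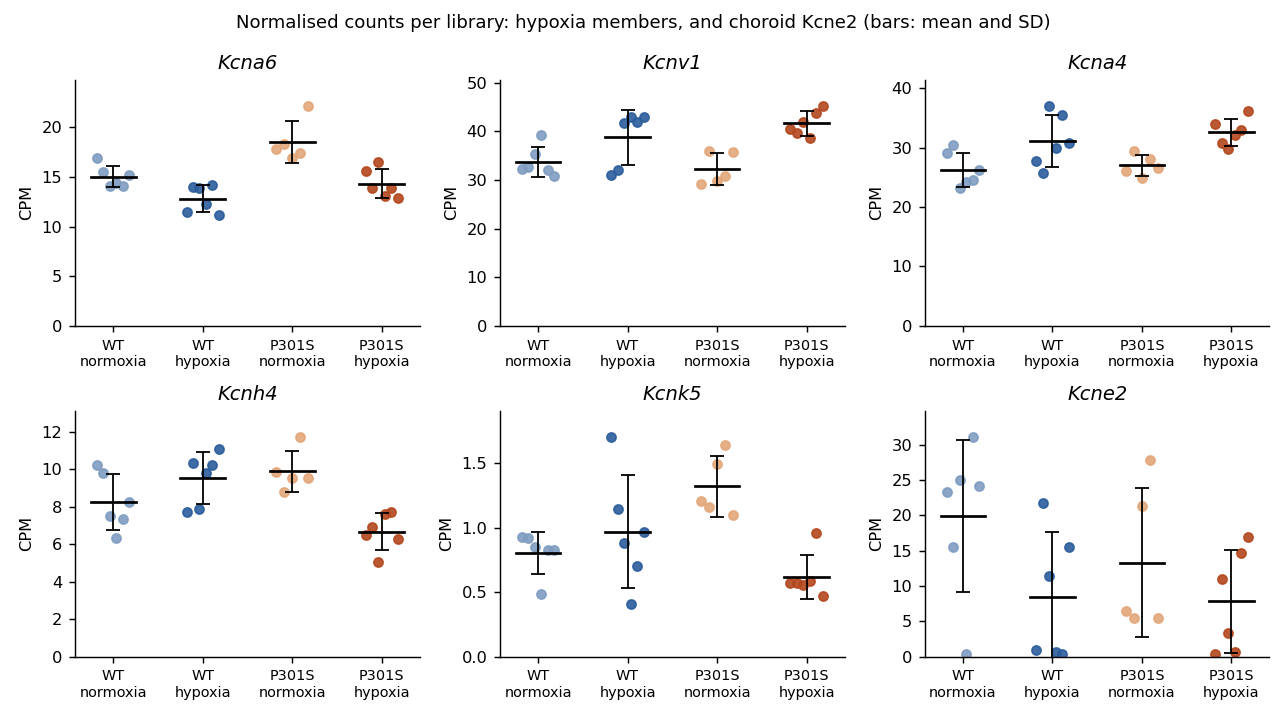
CPM per library (vertical axis, from 0) in the 4 groups for the 5 genes called with hypoxia and for Kcne2, 1 point per library, with mean and SD. Kcnv1 and Kcna4 are higher and Kcna6 lower in hypoxia in both genotypes, and Kcne2 is under 1 CPM in 6 libraries.

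Some members are known as markers of a cell type. Kcne2, an accessory subunit of choroid plexus epithelium, had 0.369 to 0.982 CPM in the 6 libraries low in choroid markers and 3.37 to 31.1 CPM in the other 17. Its averaged log2 fold change with hypoxia was −0.99 with an SE of 0.583 (edgeR adjusted p = 0.423). The part of dissection in this value was not tested. Kcng4, a silent subunit, and Kcnj12, an inward rectifier, are named here after their values were seen: WT hypoxia replicate 1 had 44.2 CPM of Kcng4, against at most 11.7 in any other library, and 18.8 CPM of Kcnj12, against at most 8.50. In the edgeR fit without covariates, 6 other markers were called in none of the 7 comparisons. They are the astrocyte rectifiers Kcnj10 and Kcnj16, the pericyte rectifier Kcnj8, the microglial two-pore channel Kcnk13, and Kcnc1 and Kcnc2 of fast-spiking interneurons. The lowest edgeR adjusted p among these 6 in that fit was 0.0926, for Kcnk13 with hypoxia averaged over genotypes (log2 fold change −0.24). DESeq2 called Kcnk13 in that comparison, beside 3.62% of all genes. The length-adjusted edgeR fit called it there in 1 of the 23 fits that left out 1 library. With the thalamus and habenula score, Kcnj10 was called in the averaged P301S effect.

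After group means were removed, members were compared by Pearson r of log2 CPM over the 23 libraries, as a description, since all values share their libraries. Kcnip4 was most like Kcnip1, another calcium sensor (r = 0.62), and Kcnb2 most like Kcnh7 (r = 0.68). The short genes Kcna4 and Kcnv1 were most like Kcnj2 (r = 0.66) and Kcnc2 (r = 0.72). Among the 19 members compared in this way, the highest value was between Kcnj6 and Kcna1 (r = 0.85).

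Proteins that assemble with or anchor these channels were read from a list of 20, of which 17 were tested. In the P301S effect averaged over conditions 4 rose, where 5.35% of all genes rose: Lgi1 and Adam22, a secreted ligand and its receptor at Kv-bearing axon segments, and the scaffolds Ank3 and Dlg2. With the length adjustment 2 of the 17 were called, beside 5.03% of all genes. Lgi1 kept its call at 0.16 (edgeR adjusted p = 0.0473), and the other had not been called without the adjustment and is not named here. Adam22 had 0.01, Ank3 0.00 and Dlg2 −0.07. Lgi1 also rose with hypoxia averaged over genotypes, by 0.18 (SE 0.0457, edgeR adjusted p = 0.0444). Its median was 51.3 CPM in WT normoxia, 58.5 in WT hypoxia, 60.5 in P301S normoxia and 66.4 in P301S hypoxia. Of 11 genes of potassium pumps and chloride cotransporters, 9 were tested and none was called; Atp1b1, a sodium pump subunit, came closest, at 0.18 for hypoxia in P301S (edgeR adjusted p = 0.0888).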

How the data were processed

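Per the file headers, the authors produced the whole-number counts with featureCounts 1.6.2 over whole gene bodies of Ensembl release 90, ignoring strand and without normalization. The submitters' processing notes also name HISAT2, the build mm10 and DESeq2 1.6.3. By default, featureCounts discards a read that touches several genes. This lowers counts of genes that overlap others, and intron reads raise those of long genes.

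The members and all gene lists were chosen with earlier results of these data known. Symbols, exon lengths and GC content came from GENCODE M21, the same assembly. Groups came from the genotype and condition labels, and replicate numbers only name libraries. Counts were scaled by TMM and kept by filterByExpr (minimum count 10). A quasi-likelihood model of the 4 groups (edgeR 4.0.16 in R 4.3.3, robust dispersions) was fitted to 17788 genes in 23 libraries. It was tested two-sided in 7 contrasts: 4 pairwise, the interaction and 2 averaged effects. Genes with an adjusted p below 0.05 over all genes were called. The length adjustment subtracted a natural spline (5 degrees of freedom) of each library's log2 CPM on log10 gene-body length as an offset. The fits were tested on simulated data. Alternatives were DESeq2 1.42.0, no filter, a GC term, contrast groups alone, fits without single libraries or without the 6 libraries low in choroid markers, other dispersions and a marker covariate. Genes named are those called in any contrast or with the 3 lowest p in each, the extremes of level in each role, cell-type markers, genes at the threshold, the most alike members, and called partners. Scores of marker lists are means of centred log2 CPM. CPM values given per library are TMM-normalised. Proteins are not analysed here, and some members are counted but not reported by name.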

Additional observations from a re-analysis of the deposited data

Results flagged for a closer look

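In groups of 5 or 6 libraries, 10 single values lay apart from the rest of their group by Dixon's criterion. The 29 tested genes gave 116 groups, and chance flags about 1 in 20 groups. WT normoxia replicate 4, low in choroid plexus markers, held 4 of them: the highest Kcnc2 (161.85 CPM, others at most 133 CPM), the highest Kcnj16 (33.554 CPM, others at most 22.9 CPM), the highest Kcnq5 (149.39 CPM, others at most 113 CPM) and the lowest Kcnk5 (0.48688 CPM, others at least 0.826 CPM). WT hypoxia replicate 1 had the highest Kcnc1 (385.56 CPM, others at most 279 CPM). WT normoxia replicate 1 had the highest Kcnh7 of its group (82.295 CPM, others at most 62.9 CPM), and WT normoxia replicate 6 the highest Kcnk6 (3.679 CPM, others at most 2.82 CPM). P301S normoxia replicate 5 had the highest Kcna6 (22.14 CPM, others at most 18.3 CPM). In P301S hypoxia, replicate 5 had the highest Kcnk5 (0.96137 CPM, others at most 0.588 CPM) and replicate 6 the lowest Kcnma1 (373.63 CPM, others at least 412 CPM). Their causes were not tested.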

How the results depend on the processing

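Counts of members called depended on the length adjustment, on single libraries and on the choroid-poor libraries, and most of the genes lay near the threshold. Percentages in brackets are the shares of all tested genes called in the same fit, which moved with these settings too. For P301S against WT in normoxia (7 called, 6.35%), 4 were called without a filter on low counts (2.28%) and 3 with the groups of the contrast alone (2.13%). The count was 2 with the length offset (1.75%), with length and GC (2.46%), or with length and the thalamus and habenula score (0.506%). It was 1 with the length offset and without the 6 choroid-poor libraries (0.134%). In hypoxia (2 called, 1.87%), 1 was called without the filter (0.711%). None was called with the length offset (0.41%), with length and GC (0.736%) or with the contrast's groups alone (1.07%). The count was 0 without the choroid-poor libraries, with or without the length offset (0.0556% and 0.089%). It was also 0 with the thalamus and habenula score, with or without the length offset (0.377% and 1.32%). For hypoxia in WT (0 called, 0.0731%), the DESeq2 Wald test called 1 (0.86%), and for the interaction (0 called, 0.0394%) it called 2 (0.275%). For hypoxia in P301S (3 called, 0.41%), 0 were called with dispersions from estimateDisp (0.304%), without the filter (0.127%) or with the length offset (0.287%). With the thalamus and habenula score 0 were called, with or without the length offset (0.0169% and 0.0394%). With length and GC 4 were called (1.07%), 1 higher and 3 lower. Without the choroid-poor libraries, 1 was called with or without the length offset (0.239% and 0.25%). The hypoxia effect averaged over genotypes (3 called, 1.33%) had 1 without the choroid-poor libraries, with or without the length offset (0.3% and 0.334%). It had 1 with the thalamus and habenula score, with or without the length offset (0.618% and 0.77%), and 5 by DESeq2 (3.62%). The P301S effect averaged over conditions (15 called, 13.1%) had 4 with the length offset (5.03%) and 5 with length and GC (5.99%). It had 2 with the length offset and without the choroid-poor libraries (1.23%), and 6 with length and the thalamus and habenula score (5.66%). The DESeq2 Wald test called 19 for this averaged P301S effect (15.6%). The log2 fold change of Kcnma1 in normoxia turned to −0.02 with the length offset and with length and GC (−0.019 and −0.022). DESeq2 size factors changed no count of members called. DESeq2 gave no adjusted p for Kcnk5 for hypoxia in P301S.

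When each library was left out in turn, the counts ran from 2 to 11 for P301S in normoxia, 0 to 3 for P301S in hypoxia, 0 to 0 for hypoxia in WT, 0 to 5 for hypoxia in P301S, 0 to 1 for the interaction, 1 to 4 for the averaged hypoxia effect and 9 to 18 for the averaged P301S effect. In normoxia the count was 11 without WT normoxia replicate 1, 4 without WT normoxia replicate 3 or 5 or P301S normoxia replicate 4, 3 without P301S normoxia replicate 5 and 2 without P301S normoxia replicate 2. Of all genes, these fits called 2069 of 17746 without WT normoxia replicate 1 and 699 and 629 without WT normoxia replicates 3 and 5. They called 531, 577 and 365 without P301S normoxia replicates 4, 5 and 2, against 1130 of 17788 with all libraries. Without P301S normoxia replicate 2 the averaged P301S effect had 9. The averaged hypoxia effect had 1 without P301S normoxia replicate 3 or 4, beside 94 and 85 of all genes, against 236 with all libraries. For P301S in hypoxia no member was called in 6 of 23 fits, those without WT hypoxia replicate 2, 4, 5 or 6 or P301S hypoxia replicate 2 or 3. For hypoxia in P301S none was called in 13 of 23 fits, 1 was called without WT hypoxia replicate 4 or P301S hypoxia replicate 3, and 5 without WT hypoxia replicate 1. No paired analysis was possible because the labels give no replicate number shared between groups. Ranks of level depend on the length used, as given above. Genes near the count threshold, such as Kcnk5 with 502 counts over 23 libraries, are limited by depth.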
